A study of Mus musculus with 8 samples.

Results

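Connexins and voltage-gated sodium channel subunits were examined in the left ventricle of mice that lack a working Nppb gene. The set holds 7 of the 41128 genes in the deposited table, chosen by symbol: the connexin genes Gja1, Gja4, Gja5 and Gjc1, and the sodium channel genes Scn4a, Scn4b and Scn7a. All 7 had a mean normalized count of at least 10 and entered the test. Left ventricular RNA came from 4 Nppb knockout mice (Nppb KO) and 4 wild-type littermates (WT), all of the FVB strain and 8 to 12 weeks old. The knockouts carry a CRISPR deletion in exon 2 of Nppb, which encodes the precursor of brain natriuretic peptide, and their source label reads HOM. The labels' protocol also names Myh6-MerCreMer, nTnG and Sun1/sfGFP lines bred on FVB/N, without saying that these 8 mice carried them. The sources used here do not give the number of founder lines.

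Gap junctions are clusters of connexin channels that join the cytoplasm of neighbouring cells. In ventricular muscle Gja1 encodes the main connexin of the intercalated disc, Gja5 is known from atrial muscle, the conduction system and arterial endothelium, Gja4 from arterial endothelium, and Gjc1 from the embryonic heart, the nodes and vascular smooth muscle. Voltage-gated sodium channels carry the upstroke of the action potential and consist of a pore-forming alpha subunit with accessory beta subunits. Scn4a encodes the alpha subunit best known from skeletal muscle, Scn4b a beta subunit found in heart and brain, and Scn7a an atypical alpha subunit known from glia and neurons that sense body sodium.

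None of the 7 transcripts passed the test between genotypes, and in all 7 the values of knockouts and wild types overlapped. The largest estimate was for Scn4a, with a difference of means (knockout minus wild type) of -15.8%. For the other 6 genes this difference ranged from -6.01% to 9.50%. Over all genes tested, limma called 0.0121% at an adjusted p under 0.05, 0.00603% in each direction. Those were 2 genes, a count that became 1 when any of 6 ventricles was left out, 4 without knockout replicate 4 and 6 without wild-type replicate 2. The groups did not overlap for 3.76% of all genes tested, and for 0 of these 7.

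The libraries held 20284865 to 34742840 reads assigned to genes. Nppb itself checked the labels: it averaged 3.003 ± 1.31 normalized counts in knockouts and 2983 ± 1170 in wild types (SD, n = 4 each; limma adjusted p = 4.63e-05), with no overlap. Normalized counts are reads divided by a size factor per library, set by the authors. Fold changes below are knockout over wild type on the scale log2(normalized count + 1). In RNA of a whole ventricle, fewer cells of a type and less RNA per cell cannot be told apart.

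The promoters of the connexins with the highest and the lowest level per length are shown here, since T-box, NK homeobox and GATA factors are known to act on connexin genes in the heart. The windows run from 250 bases before to 50 after the RefSeq start site on build GRCm38.p6. Gja1 is on the forward strand at chr10:56377050-56377349 and Gja5 on the forward strand at chr3:97032152-97032451. The annotated Gja5 gene, with 3 transcripts, starts far upstream of this window, at position 96904693, and the sequence at that start is not shown. Capitals mark matches on either strand to any of 5 motifs. The letters TATAAA stood for the core promoter box of that name, GGGCGG for the GC box, AGGTGT for the T-box site, TNAAGTG for the NK homeobox site and AGATAA for the GATA site.
Gja1: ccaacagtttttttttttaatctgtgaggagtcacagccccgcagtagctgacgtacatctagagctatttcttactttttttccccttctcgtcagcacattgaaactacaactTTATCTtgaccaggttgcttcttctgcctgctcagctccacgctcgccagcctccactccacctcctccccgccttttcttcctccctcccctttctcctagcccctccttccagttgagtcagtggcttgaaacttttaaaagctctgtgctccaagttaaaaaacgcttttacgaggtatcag
Gja5: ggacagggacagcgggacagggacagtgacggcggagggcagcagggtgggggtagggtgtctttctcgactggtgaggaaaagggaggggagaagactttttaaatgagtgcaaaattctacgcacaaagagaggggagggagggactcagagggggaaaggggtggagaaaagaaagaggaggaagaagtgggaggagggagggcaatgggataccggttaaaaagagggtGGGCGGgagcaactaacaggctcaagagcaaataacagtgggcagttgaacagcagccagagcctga
The Gja1 window held 1 match, a GATA site on the reverse strand starting 135 bases before the start site, and the Gja5 window held 1 GC box starting 17 bases before it. Of the 6 genes with an entry in the promoter table, Gja4, Gja5 and Scn7a held a GC box, against 35.7% of 32851 promoter windows of the same length. Gja1 and Scn7a held a GATA site, against 11.2% of all windows. The TATA box, the T-box site and the NK homeobox site were in 0 of the 6 windows, against 13.6%, 13.7% and 11.5% of all windows. These are matches of letters in short windows.

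Gja1 (ENSMUSG00000050953) spans positions 56377330 to 56402513 of chromosome 10, forward strand (build mm10). Its normalized count was 10238, 9662, 9283 and 8224 in knockout replicates 1 to 4, against 8201, 7927, 9571 and 9383 in wild-type replicates 1 to 4. Knockout replicates 1 and 2 lay above every wild type, and wild-type replicates 1 and 2 lay below every knockout, while the other animals of both groups shared one range. On the log2 scale the knockouts differed by 0.09 (SE 0.08; limma adjusted p = 0.865), and the 95% interval from -0.08 to 0.26 spans 0.948-fold to 1.20-fold. An exact two-sided permutation test on the means gave p = 0.314.

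Gja4 (ENSMUSG00000050234) spans positions 127311421 to 127314039 of chromosome 4, reverse strand. It read 179.9, 181, 142 and 186 in knockout replicates 1 to 4, against 141, 192, 156 and 139.7 in wild-type replicates 1 to 4. Knockout replicates 1, 2 and 4 stood together near the top of the range with wild-type replicate 2, and knockout replicate 3 stood with the lower wild types. The estimate was 0.13 on the log2 scale (SE 0.12), with a 95% interval from -0.12 to 0.39 and a limma adjusted p of 0.878. Between 117 and 234 reads per library lay behind these values, a counting error of 6.54% to 9.24%. The 8 arterial endothelium markers had a summed normalized count of 2961 to 3248 in knockouts and 2969 to 3166 in wild types, and their log2 estimates, 5 above 0 and 3 below, had a median of 0.02. Among them Bmx, a kinase of arterial endothelium picked after its values were seen, averaged 44.7 ± 2.45 in knockouts and 33.8 ± 7.60 in wild types (SD, n = 4 each; limma adjusted p = 0.771). The part of arterial cells in the Gja4 values was not tested.

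Gja5 (ENSMUSG00000057123) spans positions 96904693 to 97077416 of chromosome 3, forward strand, and shares 165 exonic bases with Gpr89 on the opposite strand. Gpr89 read 265 to 319 normalized counts. The sources used here do not say whether reads were counted by strand, so reads of the pair cannot be told apart there. Gja5 read 124, 114, 129.8 and 89.0 in knockout replicates 1 to 4, against 112, 123, 136 and 115 in wild-type replicates 1 to 4. Knockout replicate 4 was the lowest of all 8 ventricles, and the other knockouts lay inside the wild-type range. The log2 estimate of -0.10 (SE 0.13) had a 95% interval from -0.37 to 0.17 and a limma adjusted p of 0.929. Without knockout replicate 4 it was 0.014, on the other side of 0.

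Markers of the conduction system, where Gja5 is known to be high, summed to 1395 to 1469 normalized counts in knockouts and 1410 to 1791 in wild types. Estimates were above 0 for 3 of the 10 markers and below 0 for 7 (median -0.03 on the log2 scale), and 0 were called by limma or DESeq2. Cntn2, a cell adhesion protein of Purkinje fibres, had the smallest unadjusted p of the list. It averaged 95.4 ± 22.1 in knockouts and 137 ± 29.7 in wild types (SD, n = 4 each; log2 fold change -0.52, SE 0.19; limma adjusted p = 0.753). This gene was picked after its values were seen. The part of conduction tissue in the Gja5 values was not tested.

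Gjc1 (ENSMUSG00000034520) spans positions 102799579 to 102819700 of chromosome 11, reverse strand. It read 350.0, 398, 372 and 362 in knockout replicates 1 to 4, against 348, 371, 382 and 358 in wild-type replicates 1 to 4. The groups covered almost the same range, with knockout replicate 2 the highest and wild-type replicate 1 the lowest. The log2 estimate was 0.02 (SE 0.07; limma adjusted p = 0.981), and its 95% interval from -0.12 to 0.17 was the second narrowest of the 7, after that of Scn7a. The smooth muscle and pericyte markers summed to 34264 to 35655 in knockouts and 33551 to 34662 in wild types, with a median log2 fold change of 0.06 over 10 genes, 0 of them called by limma or DESeq2.

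**Figure D1:**
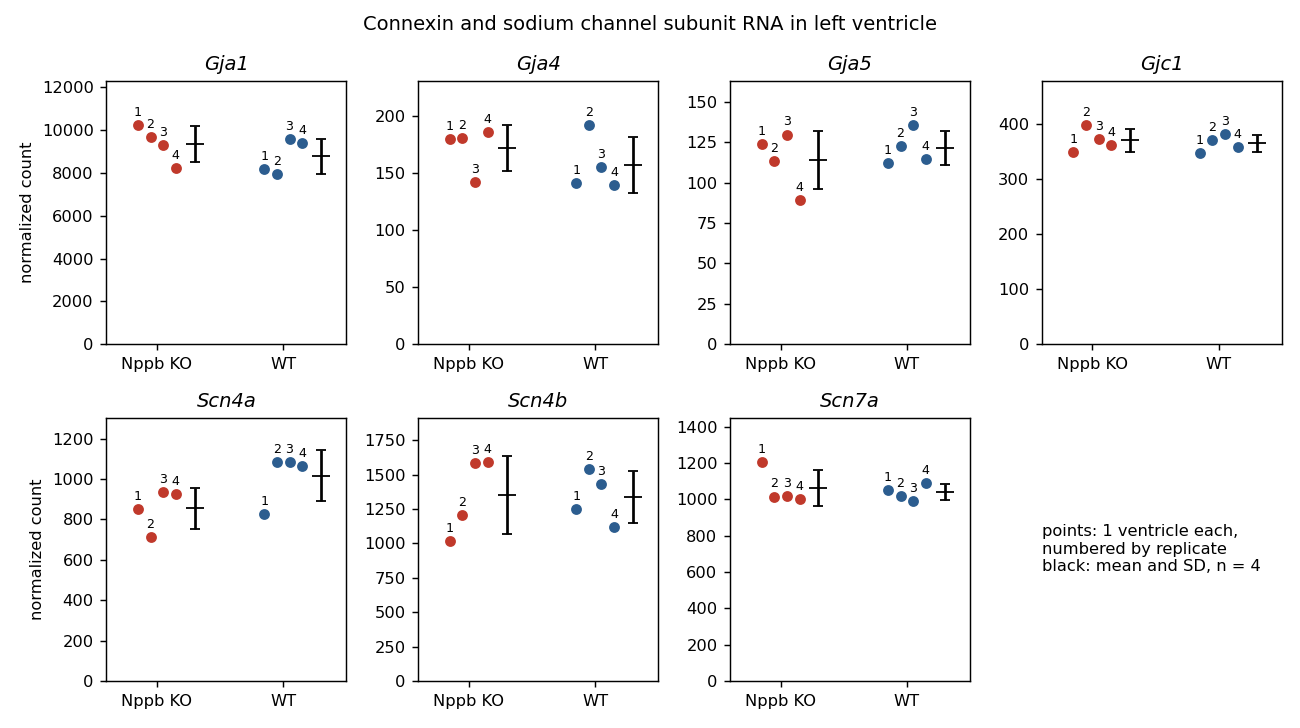
Normalized count (linear axis from 0) of the 7 genes in 4 Nppb KO and 4 WT ventricles, with replicate numbers, mean and SD. The groups overlap in every panel, and WT replicate 1 lies apart for Scn4a at 828 against 1067 to 1086.

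Among the sodium channel genes, Scn4a (ENSMUSG00000001027; chromosome 11, positions 106318592 to 106353288, reverse strand) had the estimate farthest from 0. It read 850.2, 713, 934 and 925 in knockout replicates 1 to 4, against 828, 1086, 1082 and 1067 in wild-type replicates 1 to 4. Wild-type replicates 2 to 4 lay above every knockout, whereas wild-type replicate 1 lay below 3 of the 4 knockouts. The means were 855 ± 102 in knockouts and 1016 ± 126 in wild types (SD, n = 4 each). The log2 estimate was -0.25 (SE 0.11), with an unadjusted limma p of 0.0481 and an adjusted p of 0.794. An unadjusted p that low was found for 6.26% of all genes tested. The exact two-sided permutation test gave p = 0.114, where 0.0286 is the smallest that 4 against 4 allows.

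The Scn4a estimate kept its sign under every alternative that was run, but its size varied with the ventricles used. It was -0.34 without wild-type replicate 1 (adjusted p of 0.652 by limma) and -0.16 without knockout replicate 2 (adjusted p of 0.956 by limma). In 5 of the 8 fits that left out 1 ventricle the unadjusted limma p was no longer under 0.05. In the other 3 it was under 0.05, the lowest being 0.0012 without wild-type replicate 1. The edgeR and DESeq2 tests on the recovered whole reads gave adjusted p-values of 0.756 and 0.627. The authors' deposited table gives Scn4a a log2 fold change of 0.25 in the direction wild type over knockout, a p of 0.0248 and an adjusted p of 0.504. Of 4094 genes within 2-fold of the mean level of Scn4a, 1.25% had a larger absolute log2 fold change, and 94.7% had a smaller SD within genotypes. At the level of each other member, the share with a larger change was 17.5% for Gja1, 26.0% for Gja4 and 45.2% for Gja5. It was 69.1% for Scn7a, 80.5% for Gjc1 and 99.4% for Scn4b. Skeletal muscle was checked because Scn4a is abundant there. The 10 markers of skeletal muscle summed to 7391 to 9358 in knockouts and 8090 to 9299 in wild types, and all 5 that were tested had negative estimates (median -0.17 on the log2 scale), 0 of them called by limma or DESeq2. Of these markers Pvalb was at 0 in every library, and Tnnt3, Tnni2, Mylpf and Atp2a1 were at 0 to 11.6 normalized counts in knockouts and 1.33 to 13.7 in wild types. The other 5 were higher. Myh1 averaged 5731 ± 719 in knockouts and 5736 ± 143 in wild types (SD, n = 4 each), Myh4 1527 ± 191 and 1642 ± 130.03, Myl1 1020.2 ± 387 and 1130 ± 396, Myh2 30.02 ± 8.76 and 34.9 ± 4.31, and Actn3 17.04 ± 3.14 and 21.3 ± 4.93, in knockouts and wild types. Myosin heavy chain genes are similar in sequence, and the sources used here do not say how shared reads were counted. The part of skeletal muscle in the Scn4a values was not tested.

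Scn4b (ENSMUSG00000046480; chromosome 9, positions 45138395 to 45154152, forward strand) had nearly equal group means and the widest spread of the 7 genes. It read 1019, 1207, 1583 and 1594 in knockout replicates 1 to 4, against 1252, 1538, 1433 and 1122 in wild-type replicates 1 to 4. The lowest and the 2 highest ventricles were all knockouts, so the wild types lay inside the knockout range. The means were 1351 ± 285 in knockouts and 1336 ± 185 in wild types (SD, n = 4 each; log2 fold change 0.000447, SE 0.18; limma adjusted p = 0.9999). The 95% interval from -0.42 to 0.42 allows 0.747-fold to 1.34-fold.

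Scn7a (ENSMUSG00000034810; chromosome 2, positions 66673425 to 66784914, reverse strand) read 1208, 1015, 1019 and 1001 in knockout replicates 1 to 4, against 1053, 1015, 991 and 1092 in wild-type replicates 1 to 4. Knockout replicate 1 was the highest of all 8, and the other 3 knockouts lay close together inside the wild-type range. The log2 estimate was 0.03 (SE 0.06; limma adjusted p = 0.966), with the narrowest 95% interval, -0.10 to 0.16. Without knockout replicate 1 it was -0.035, on the other side of 0. Schwann cell markers summed to 334 to 499 in knockouts and 317 to 467 in wild types, with 3 estimates above 0, 5 below and a median of -0.06 on the log2 scale over 8 tested genes. By sample the marker sums were 499, 442, 334 and 354 in knockout replicates 1 to 4, against 455, 317, 447 and 467 in wild-type replicates 1 to 4. Knockout replicate 1 and wild-type replicates 4 and 1, the highest in Scn7a, had the highest sums in the same order. Wild-type replicate 3, with the least Scn7a, had a sum of 447. Cdh19, a cadherin of Schwann cells, averaged 106 ± 19.1 in knockouts and 111 ± 14.4 in wild types (SD, n = 4 each). The part of nerve tissue in the Scn7a values was not tested.

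**Figure D2:**
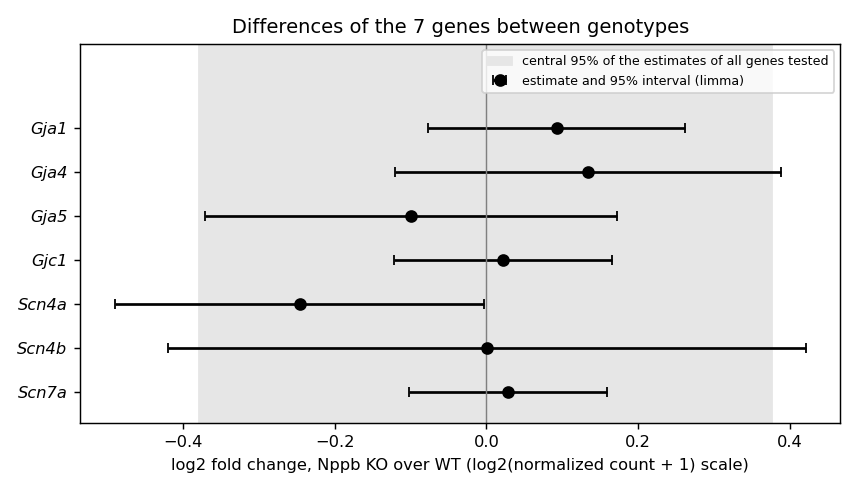
Log2 fold change of each gene (Nppb KO over WT) with its limma 95% interval. The grey band is the central 95% of the estimates of all 16590 genes tested, from -0.38 to 0.38. The interval of Scn4a ends just below 0 before adjustment over all genes, and the other 6 include 0.

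By limma 0 of the 7 genes were called, with 1, Scn4a, at an unadjusted p under 0.05. edgeR called 0 of the 7, against 0.0121% of all genes tested. DESeq2 called 0 of the 5 that it gave an adjusted p, against 0.291% of the 7906 genes with one. Each had Scn4a alone at an unadjusted p under 0.05, against 6.44% of all genes in edgeR and 4.57% in DESeq2. Gja4 and Gja5 had no adjusted p in DESeq2. The authors' deposited table lists an adjusted p for 4 of the 7, Gja1, Scn4a, Scn4b and Scn7a, between 0.504 for Scn4a and 0.996 for Scn4b. The 7 estimates, 5 above 0 and 2 below, had a median of 0.02 on the log2 scale. Over all genes tested the median was 0.002, with 8447 above 0 and 8143 below. The 95% interval of a single gene was narrowest for Scn7a, 0.932-fold to 1.12-fold, and widest for Scn4b, 0.747-fold to 1.34-fold. A missed threshold does not show that the genotypes were alike.

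Levels were compared between genes as normalized count per kilobase of the longest coding transcript. Gja1 stood far above the rest, at 2939 ± 267 per kilobase in knockouts and 2756 ± 260 in wild types (SD, n = 4 each). Scn4b followed at 271 ± 57.2 and 268 ± 37.2 in knockouts and wild types. Gjc1 had 160.1 ± 8.94 and 158 ± 6.40 in knockouts and wild types, Scn4a 129.6 ± 15.5 and 154 ± 19.0, and Scn7a 145 ± 13.4 and 141 ± 5.97. These 3 genes had overlapping values, and their order was not the same in both genotypes. Gja4 came next at 102 ± 12.0 in knockouts and 93.3 ± 14.5 in wild types, and Gja5 was lowest at 31.1 ± 4.91 and 33.1 ± 2.89. No value of Gja4 reached those of Scn7a above it or Gja5 below it, but the lowest Scn4a value, 108 in a knockout, lay within the Gja4 range. With the merged length of all annotated exons in place of the longest coding transcript, Gja1, Scn4b and Gja5 kept ranks 1, 2 and 7, but Gjc1 moved to rank 6, since its annotated exons span 5.003 kb against 2.31 kb for that transcript. On merged exons the lead of Gja1 over Scn4b was 3.36-fold in knockouts and 3.19-fold in wild types.

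**Figure D3:**
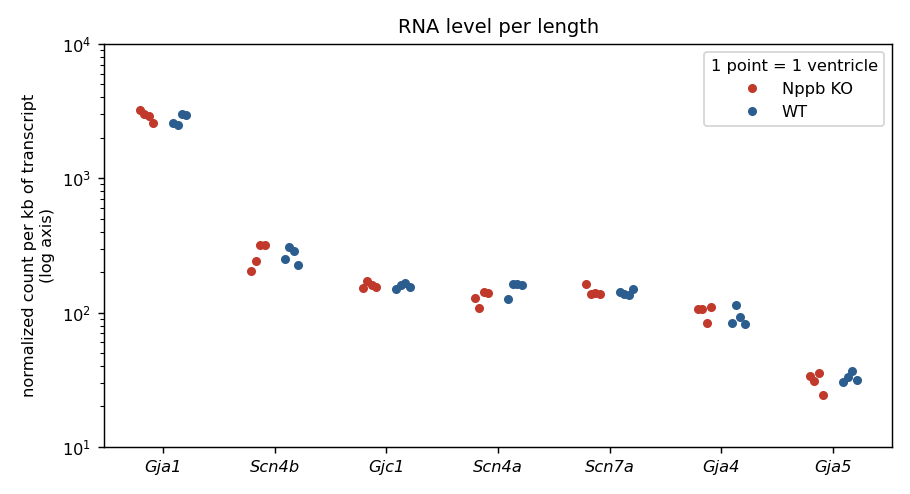
Normalized count per kilobase of the longest coding transcript (log axis), 1 point per ventricle, Nppb KO left of WT. On this length Gja1 exceeds the next gene, Scn4b, by 10.8-fold in Nppb KO and 10.3-fold in WT (3.36-fold and 3.19-fold per kilobase of merged exons), and Gjc1, Scn4a and Scn7a overlap.

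Taken as shares of the 4 connexins per kilobase, Gja1 made up 90.9% ± 0.771 of their summed level in knockouts and 90.6% ± 1.14 in wild types (SD, n = 4 each). Other connexin genes, Gja3 among them, were left out of this sum. Gjc1 made up 4.98% ± 0.478 in knockouts and 5.21% ± 0.398 in wild types. Gja4 followed with 3.18% ± 0.499 and 3.10% ± 0.669, and Gja5 with 0.959% ± 0.110 and 1.09% ± 0.0928, in knockouts and wild types. The ranges of the groups overlapped for each connexin. The shares depend on the length used: per kilobase of merged exons, an alternative chosen after the data were seen, Gja1 made up 82.2% ± 1.51 in knockouts and 81.9% ± 2.30 in wild types (SD, n = 4 each). Gja4 then came second with 9.26% ± 1.35 in knockouts and 9.01% ± 1.78 in wild types, Gjc1 had 6.71% ± 0.601 and 7.01% ± 0.426, and Gja5 1.79% ± 0.221 and 2.03% ± 0.146, in knockouts and wild types. The ratio of Gja4 to Gja5 per kilobase of the longest coding transcript ranged from 2.38 to 4.55 in knockouts and from 2.497 to 3.41 in wild types, with the highest ratio in knockout replicate 4, where Gja5 was lowest. The ratio of Scn4a to Scn4b was 0.438 to 0.446 in knockout replicates 2 to 4 but 0.630 in knockout replicate 1, and 0.499 to 0.718 in wild types.

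The spread between animals of 1 genotype differed from gene to gene. Gjc1 varied by 5.58% in knockouts and 4.06% in wild types (coefficient of variation, n = 4 each), about the 4.40% to 5.90% that counting alone gives at its 287 to 516 reads. Gja5 varied by 15.8% in knockouts, above its counting error of 8.16% to 11.3%, and by 8.73% in wild types, within that error. Gja1 had at least 7193 reads a library and a counting error of 1.18% or less, yet varied by 9.07% in knockouts and 9.43% in wild types. Scn4b varied by 21.1% in knockouts and 13.9% in wild types, against a counting error of 2.47% to 3.11%. Scn4a varied by 12.0% in knockouts and 12.4% in wild types, against 3.01% to 3.51% from counting, and Scn7a by 9.25% and 4.22% in knockouts and wild types, against 2.61% to 3.66%. Gja4 varied by 11.8% in knockouts and 15.6% in wild types, against 6.54% to 9.24%. Of the 7 genes Scn4b had the widest spread: its pooled SD within genotypes was 0.27 on the log2 scale, above that of 98.5% of the 3201 genes within 2-fold of its level. The same share was 94.7% for Scn4a, 87.1% for Gja1, 77.9% for Gja4, 70.8% for Scn7a, 62.5% for Gja5 and 15.9% for Gjc1.

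**Figure D4:**
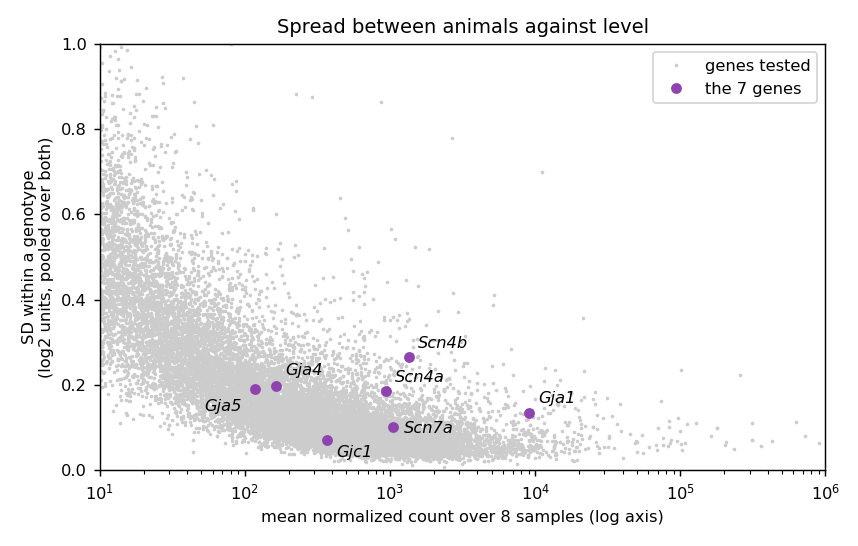
SD within a genotype in log2 units, pooled over Nppb KO and WT, against the mean normalized count (log axis) for all genes tested (grey) and the 7 genes (purple). The vertical axis ends at 1. Scn4b lies at 0.27 near the top of the cloud at its level, and Gjc1 at 0.07 near the bottom.

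Across the 8 ventricles, the genes whose log2 levels followed each member most closely were picked from 11028 named genes with a mean of at least 50, as a description with no test, since a few of so many candidates follow any gene over 8 samples. For Gja1 these were Itgb6, an integrin chain, and Psd3, an exchange factor of small GTPases (Pearson r = 0.976 and 0.975). For Gja5 they were Fam189a2 and the unconventional myosin Myo10 (r = 0.978 and 0.955), and for Gja4 the pseudogene Cbx3-ps6 and Isca1, an iron-sulfur cluster assembly gene (r = 0.948 and 0.941). Gjc1 was followed by Vars2, a mitochondrial tRNA synthetase, and Asun (r = 0.957 and 0.946). Scn4a was followed by Wdr48, a cofactor of deubiquitinases, and Ten1, a telomere protein (r = 0.969 and 0.962). For Scn4b the genes were Mad2l1bp and Ugp2, an enzyme of glycogen synthesis (r = 0.961 and 0.948), and for Scn7a Ythdc2 and Txndc15 (r = 0.981 and 0.930). Without the 2 ventricles farthest from the median of the member, r stayed between 0.766, for Gja5 with Myo10, and 0.984, for Gja1 with Itgb6. Spearman's rho ranged from 0.714 to 0.952 over these pairs.

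Other genes of the same machinery were read from 7 lists with 59 distinct tested genes. By limma 0 of the 59 were called, as by edgeR and DESeq2, with 4 at an unadjusted p under 0.05 in limma, 4 in edgeR and 3 in DESeq2. Those 4 are 6.78% of the 59, against 6.26% of all genes tested. The estimates of 31 genes were above 0 and of 28 below, and their median was 0.001 on the log2 scale. The groups did not overlap for 2 of the 59, against 3.76% of all genes tested.

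Of the 16 other connexin genes 2 were high enough for the test, and 6 were at 0 in every library. Gja3, a connexin best known from the eye lens, averaged 127 ± 13.9 in knockouts and 125 ± 12.5 in wild types (SD, n = 4 each; limma adjusted p = 0.996). Of the pannexins, which form related channels in the membrane of single cells, Panx1 alone was tested (28.9 ± 4.47 in knockouts, 30.7 ± 3.65 in wild types; SD, n = 4 each; limma adjusted p = 0.968).

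The 4 tested members of the other sodium channel alpha subunits had log2 fold changes from -0.09 to 0.01. The lowest was Scn3a, a channel known from the embryonic brain, at 113 ± 15.3 in knockouts and 121 ± 21.8 in wild types (SD, n = 4 each; limma adjusted p = 0.940). The other 3 beta subunits had estimates from -0.19 to 0.38. Scn3b, at the upper end, averaged 23.4 ± 4.73 in knockouts and 18.2 ± 6.30 in wild types (SD, n = 4 each; limma adjusted p = 0.844). Scn2b, at the lower end, averaged 26.1 ± 5.19 in knockouts and 30.8 ± 9.65 in wild types (SD, n = 4 each; limma adjusted p = 0.929).

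Sodium channel partners held 3 of the 4 genes at an unadjusted p under 0.05, in a list of 14 tested genes with 7 above 0 and 7 below. Cav3, the muscle caveolin, ranged from 763 to 841 in knockouts and from 685 to 718 in wild types, without overlap (log2 fold change 0.18, SE 0.05; limma adjusted p = 0.661). Ptpn3, a protein tyrosine phosphatase, ranged from 726 to 866 in knockouts and from 881 to 1054 in wild types, also without overlap (-0.23, SE 0.07; limma adjusted p = 0.664). Sgk1, a kinase that raises sodium channel number at the membrane, ranged from 682 to 902 in knockouts and from 623 to 748 in wild types (0.22, SE 0.09; limma adjusted p = 0.753) and was picked after its values were seen.

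The 18 tested connexin and intercalated disc partners had a median log2 fold change of 0.008, with 11 above 0 and 7 below. Dsg2, a desmosomal cadherin, averaged 844 ± 117 in knockouts and 932 ± 32.0 in wild types (SD, n = 4 each; limma adjusted p = 0.808). The 17 transcription factors of conduction genes had a median of -0.001, with 7 above 0 and 10 below. Irx4, a ventricular homeobox factor, averaged 602 ± 52.9 in knockouts and 547 ± 47.3 in wild types (SD, n = 4 each; limma adjusted p = 0.808), and Foxo1, a forkhead factor, 311 ± 27.5 and 345 ± 37.9 in knockouts and wild types (adjusted p = 0.813 by limma).

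**Figure D5:**
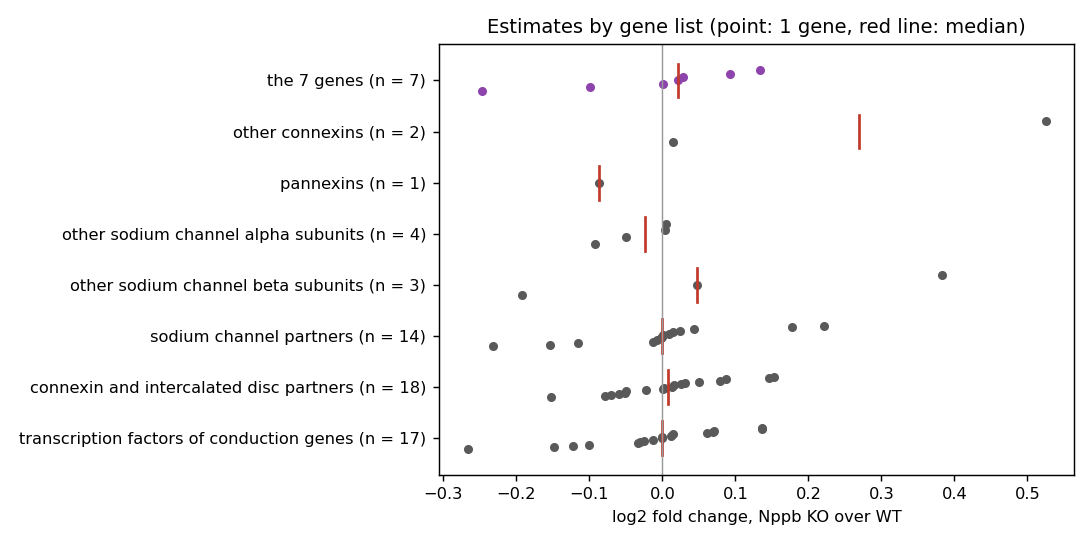
Log2 fold change (Nppb KO over WT) of the 7 genes and of each tested gene in 7 lists of related genes; red lines are medians. The 3 longest lists have medians between -0.001 and 0.008. The shorter lists, of 1 to 4 tested genes, have medians from -0.09 to 0.27. Of the genes shown 0 were called.

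The labelled tissue was checked with marker genes. The 7 cardiomyocyte markers were all present, Myh6 being the highest at 692719 ± 43980 in knockouts and 744706 ± 34276 in wild types (SD, n = 4 each), while of the 7 atrial markers Myl7, Sln and Bmp10 stayed at or below 3.30 in knockouts and 7.58 in wild types. The other 4 atrial markers were expressed: Kcnj5, a potassium channel subunit, averaged 1098 ± 141 in knockouts and 1139 ± 46.8 in wild types (SD, n = 4 each), Kcnj3 845 ± 76.5 and 872 ± 25.8, Stard10 193 ± 15.2 and 218 ± 16.1, and Myl4 35.4 ± 10.6 and 26.3 ± 8.62, in knockouts and wild types. The 7 summed to 1981 to 2406 in knockouts and 2156 to 2313 in wild types. Of 82 tested genes in 12 marker lists, limma and DESeq2 called 0, with Bmx, Cntn2 and the macrophage receptor Mrc1, 3 genes picked after their values were seen, at an unadjusted p under 0.05 in limma, against 6.26% of all genes tested. The cardiomyocyte markers summed to 1124890 to 1276930 in knockouts and 1214600 to 1322360 in wild types, with 0 estimates above 0 and a median log2 fold change of -0.04. All 7 macrophage markers found in the table had estimates above 0, with a median of 0.16 and summed counts of 3241 to 3582 in knockouts and 2793 to 3673 in wild types. The part of cell composition in the values of the 7 genes was not tested.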

How the data were processed

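RNA of 8 left ventricles was sequenced from 900 ng of total RNA with a stranded total RNA kit as 125 bp paired-end reads, per the labels' protocols. The authors deposited normalized counts per gene and sample, a signal that is never negative. STAR, DESeq2 and build mm10 were used, per the submitters' processing notes. The sources used here give no read counter, annotation or version. Within each sample 100% of values were whole multiples of the smallest value above 0, within 0.01 reads, which gave the whole reads. A second deposited table holds the authors' own test: per gene, the log2 fold change of wild type over knockout, the p-value and its adjusted form, and geometric group means. Nothing in the labels explains the replicate numbers. The p-values set the difference between genotypes against the spread within each genotype, and cover these 8 samples only.

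The test was limma 3.58.1 in R 4.3.3 (robust moderation, mean-variance trend). It was run on log2(normalized count + 1) of the 16590 genes whose mean was at least 10, with Benjamini-Hochberg adjustment over all of them. Alternatives changed the pseudocount, the filter, the normalization, the moderation, the block, the samples, or the test (edgeR 4.0.16 and DESeq2 1.42.0 on the recovered reads, which called 2 and 23 genes). Scripts were tested on simulated data. Coordinates and lengths came from GENCODE M21, which matched 40254 of 41128 gene IDs, and promoters from RefSeq (GRCm38.p6), which held 6 of the 7 genes. Counting errors are 1 over the square root of the reads and cover counting only. Chi-square tests of reads set replicates of 1 group apart in each case, with at least 4.52 per degree of freedom.

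The 7 genes and the lists were chosen with earlier results of these data known. Named genes were Nppb, the 7 genes, the 2 tested genes with the smallest p of each pathway list, the highest or lowest markers of lists given beside a result, and the 2 genes most like each member. The skeletal muscle and atrial markers were named in full, and Gpr89 for its overlap with Gja5. Others are said to be picked after their values were seen. Not every gene of the lists is reported here.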

Additional observations from a re-analysis of the deposited data

Results flagged for a closer look

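Of 66 sets of 4 ventricles of 1 genotype, 3 had a highest or lowest value set apart by a gap above Dixon's 95% critical value, as a share of the whole range. Chance gives about 1 in 20. Scn7a was highest in knockout replicate 1, at 1208 against 1001 to 1019 in the other knockouts (gap 0.915 of the range). Gja4 was lowest in knockout replicate 3, at 142 against 179.9 to 186 in the other knockouts (gap 0.865 of the range). Scn4a was lowest in wild-type replicate 1, at 828 against 1067 to 1086 in the other wild types (gap 0.925 of the range).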

How the results depend on the processing

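Of 126 refits of the 7 log2 fold changes under 18 alternatives, 117 kept their direction and 0 passed the threshold. Those that turned round belonged to Gja5, Gjc1, Scn4b and Scn7a. With quantile normalization Scn4b was at -0.0036. Leaving out 1 ventricle at a time gave ranges of -0.17 to 0.014 for Gja5, -0.014 to 0.048 for Gjc1, -0.088 to 0.13 for Scn4b and -0.035 to 0.0545 for Scn7a. For the genes that kept their sign these ranges were 0.05 to 0.15 for Gja1, 0.08 to 0.23 for Gja4 and -0.34 to -0.16 for Scn4a. The cause of the changes was not tested. The number of genes called over the whole table was 2 and became 5 with no filter on low values, 23 with DESeq2 and 1 to 6 without 1 ventricle. It was 6 without wild-type replicate 2, 4 without knockout replicate 4 and 1 when any one of the others was left out. With the replicate number as a block it was 3, and Scn4a kept an adjusted p of 0.869. Deviations of same-numbered samples from their group means correlated at -0.07 to 0.03 over 16590 genes, and those of differently numbered samples at -0.21 to 0.16. Such values cannot show whether the numbers pair samples by litter or handling, so pairing stays unknown. Depth limits Gja5 and Gja4 most, with 79 to 150 and 117 to 234 reads a library.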
